A study of Mus musculus with 15 samples.

Results

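The mouse stomach transcriptome at 8 weeks after birth (W8) was compared with those at 3 and 6 weeks (W3 and W6), 3 of the 15 transcriptomes of a series that runs from mid-gestation (E12.5, in embryonic days) to W8. Each was 1 library of stomach RNA from C57BL/6 mice, with no treatment or altered allele named. By the study's methods, a replicate at these ages was the whole stomach of 1 mouse, and the mice were male. A gene was counted as lost at W8 when its log2(FPKM + 1) there was at least 1 below the mean of W3 and W6 and its upper confidence bound at W8 was below the lower bounds of both. A gained gene met the mirror rule. FPKM is fragments per kilobase of transcript, scaled to the mapped fragments of the library, and the bounds, which the authors deposited with each value, cover counting error only. Of 13937 genes with at least 1 FPKM in any of the 3 libraries, 440 (3.16%) were lost and 165 (1.18%) were gained. The genes were thus chosen by the W3, W6 and W8 values themselves, which are given as a description, and with 1 library at each age there was no replicate error and no test.

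The mouse stomach has an upper chamber, the forestomach, lined by a stratified squamous epithelium like that of the skin and oesophagus, and a lower glandular part with mucous, parietal, chief and endocrine cells. In a squamous epithelium, basal cells held by keratins 5 and 14 and the transcription factor p63 divide. Their daughters change to other keratins as they move up, and then crosslink proteins such as loricrin and the small proline-rich proteins into a cornified envelope.

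The 3 libraries carried the defining transcripts of the glandular stomach. Atp4a, the catalytic subunit of the gastric proton pump, had 1519, 2213 and 3289 FPKM at W3, W6 and W8, and Pgc, the precursor of the protease gastricsin, 86122, 122459 and 151321 FPKM. The methods of the study name liver as the source of the RNA. Alb, the albumin gene of hepatocytes, had 65.4 FPKM at W3, 0.869 at W6 and 0.672 at W8. If the bounds are Poisson, a single fragment on a typical gene was worth between 0.0435 and 0.0600 FPKM. The median difference between W8 and the mean of W3 and W6 over all genes was -0.03 on the log2 scale.

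The genes lost at W8 were led by the epidermal and oesophageal programme of the squamous epithelium, and the promoters of some of them are shown here with those of a pair of gained genes. They are the 250 bases before the RefSeq start site (GRCm38.p6), written 5′ to 3′ in the direction of transcription. Capitals mark 2 motifs in that direction: TGANTCA, the letters bound by AP-1 factors, and TATAAA, a form of the TATA box. Krtdap (chr7:30787655-30787904, forward strand), Lor (chr3:92083143-92083392, reverse strand), Sprr3 (chr3:92458721-92458970, reverse strand) and Mt4 (chr8:94136954-94137203, forward strand) were among the 12 genes lost by the largest difference, and Chia1 (chr3:106113132-106113381, forward strand) and Muc6 (chr7:141655394-141655643, reverse strand) were glandular genes gained.
Krtdap: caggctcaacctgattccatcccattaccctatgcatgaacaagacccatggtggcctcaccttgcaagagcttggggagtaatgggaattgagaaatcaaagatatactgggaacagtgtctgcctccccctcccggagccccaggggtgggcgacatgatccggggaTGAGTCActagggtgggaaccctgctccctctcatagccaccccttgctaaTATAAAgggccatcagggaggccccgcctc
Lor: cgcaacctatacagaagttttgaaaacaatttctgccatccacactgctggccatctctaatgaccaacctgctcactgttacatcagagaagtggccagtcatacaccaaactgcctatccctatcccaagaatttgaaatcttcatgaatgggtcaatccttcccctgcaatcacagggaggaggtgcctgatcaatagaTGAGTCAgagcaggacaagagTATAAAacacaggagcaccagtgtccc
Sprr3: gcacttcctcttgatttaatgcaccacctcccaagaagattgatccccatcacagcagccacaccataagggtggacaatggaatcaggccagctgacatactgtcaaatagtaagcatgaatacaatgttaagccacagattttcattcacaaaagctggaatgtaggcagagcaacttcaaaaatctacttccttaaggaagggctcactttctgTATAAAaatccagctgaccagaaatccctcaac
Mt4: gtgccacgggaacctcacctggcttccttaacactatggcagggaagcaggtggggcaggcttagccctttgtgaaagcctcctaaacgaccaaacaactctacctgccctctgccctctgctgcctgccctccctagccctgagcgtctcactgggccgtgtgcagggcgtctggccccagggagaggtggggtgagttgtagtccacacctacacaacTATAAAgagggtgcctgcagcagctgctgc
Chia1: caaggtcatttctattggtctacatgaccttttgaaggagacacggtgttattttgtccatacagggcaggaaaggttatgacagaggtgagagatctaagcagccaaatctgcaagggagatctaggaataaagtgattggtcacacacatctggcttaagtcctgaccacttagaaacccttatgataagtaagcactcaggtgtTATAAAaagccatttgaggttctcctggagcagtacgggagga
Muc6: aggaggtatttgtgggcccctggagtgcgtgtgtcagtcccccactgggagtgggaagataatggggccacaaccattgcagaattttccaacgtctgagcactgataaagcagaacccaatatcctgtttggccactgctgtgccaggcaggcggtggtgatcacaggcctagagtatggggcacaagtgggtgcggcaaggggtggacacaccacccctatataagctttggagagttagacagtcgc

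The AP-1 letters began 81 bases before the start in Krtdap and 48 bases before it in Lor. TATAAA began 30 bases before the start in Krtdap, 27 in Lor, 33 in Sprr3 and 30 in Mt4. It began 43 bases before the start in Chia1. The window of Muc6 held neither motif in these exact letters, but it held the similar letters TATATAA near its end. The RefSeq start used for Muc6 lay 85 bases from the 5′ end of the gene as deposited. A start site could be matched to 296 of the lost genes, 96 of the gained genes and 9875 of all genes analysed. On either strand, TGANTCA was in 40 of the 296 lost promoters, in 27.5% of the 69 matched promoters of lost genes from the squamous lists described next, in 7.29% of the gained promoters and in 4.65% of all. TATAAA was in 20.9% of the lost promoters, 31.9% of those from the squamous lists, 7.29% of the gained and 6.87% of all. The GC box, GGGCGG, went the other way, with 33.8% of the lost, 20.3% of the squamous, 40.6% of the gained and 58.9% of all promoters. In the lost promoters outside the squamous lists, TGANTCA was in 9.25%, TATAAA in 17.6% and the GC box in 37.9%. CAGCTG, an E-box, was in 40 of the lost promoters and in 12 of the 96 gained ones, against 11.7% of all. Median GC content was 54.0% in the lost, 50.4% in the squamous, 55.6% in the gained and 59.6% in all promoters. Members of gene families share promoter sequence, so these shares do not count independent promoters, and a match is no sign of binding.

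Of 43 analysed genes of squamous keratins and basal cells, 25 were lost and none was gained, with a median difference of -1.58. In 18 of the 25, W8 was the lowest of all 15 timepoints. The rule placed W8 below W3 and W6, so that count was in part built in, and the share over all genes is given below. Krt13 and Krt4 pair in the suprabasal cells of the oesophagus and forestomach. Krt13 (chromosome 11) had 698.8 FPKM at W3, 272.9 at W6 and 5.96 at W8, with bounds of 4.98 and 6.95 at W8. Krt4 (chromosome 15) had 235.9, 168.0 and 2.74 FPKM. The values at W8 were 45.8-fold and 61.3-fold lower than at W6, and both were under the 7.47 and 3.19 FPKM of E12.5.

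The skin-type pair Krt1 and Krt10 showed the same order. Krt1 had 632.6, 208.2 and 1.92 FPKM at W3, W6 and W8, and Krt10 had 661.4, 267.5 and 3.17 FPKM. Among basal-cell genes, Krt5 had 84.6 FPKM at W3, 27.3 at W6 and 1.26 at W8, and Krt14 had 74.1, 40.8 and 0.366 FPKM. Trp63, which encodes p63, was low throughout, with 2.16 and 0.739 FPKM at W3 and W6 and 0.0511 at W8, close to the value of a single fragment, and against W6 alone it was not lost (difference of -0.73). The injury-associated keratins Krt6b (21.1, 2.74 and 0.0325 FPKM), Krt16 (8.42, 2.35 and 0) and Krt17 (26.8, 9.13 and 0.751) were lost as well. W8 was the lowest and W3 the highest of the 3 libraries in all of these genes.

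Of 79 analysed genes of the cornified envelope and late squamous differentiation, 71 were lost and none was gained, with a median difference of -2.90. Krtdap, a secreted protein of differentiating keratinocytes, had 2173 FPKM at W3, 1053 at W6 and 7.52 at W8, a 140-fold difference between W6 and W8. Lor, loricrin, the main protein of the cornified envelope, had 1254, 603.8 and 6.49 FPKM, and Sprr3, a small proline-rich envelope protein, had 452.2, 179.8 and 2.45 FPKM. Cnfn, cornifelin, had 474.8, 232.0 and 2.04 FPKM. Ivl, involucrin, an early envelope protein, had only 4.28 and 2.11 FPKM at W3 and W6 and 0.0514 at W8.

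The late cornified envelope genes are a tandem family on chromosome 3. All 21 Lce genes in the files were analysed and all were lost. Their FPKM ran from 7.93 to 159.2 at W3 (median 61.0), from 2.64 to 60.6 at W6 (median 24.3) and from 0 to 0.836 at W8 (median 0.283), so that the lowest W6 value was above the highest W8 value. Lce1 and Sprr2 genes have near-identical copies between which reads may be split, and their single values are uncertain. Outside the lists, Mt4, a metallothionein of stratified epithelium, had the largest difference of all genes (-7.83), with 401.6, 217.7 and 0.301 FPKM, and its W8 bounds were 0 and 0.903. Lgals7, galectin-7 of keratinocytes, had 1276, 653.0 and 7.08 FPKM, and Fam25c had 657.3, 403.9 and 7.14 FPKM. Crct1, a cysteine-rich gene of the same region of chromosome 3 as Lor, had 219.3, 96.1 and 1.11 FPKM.

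**Figure D1:**
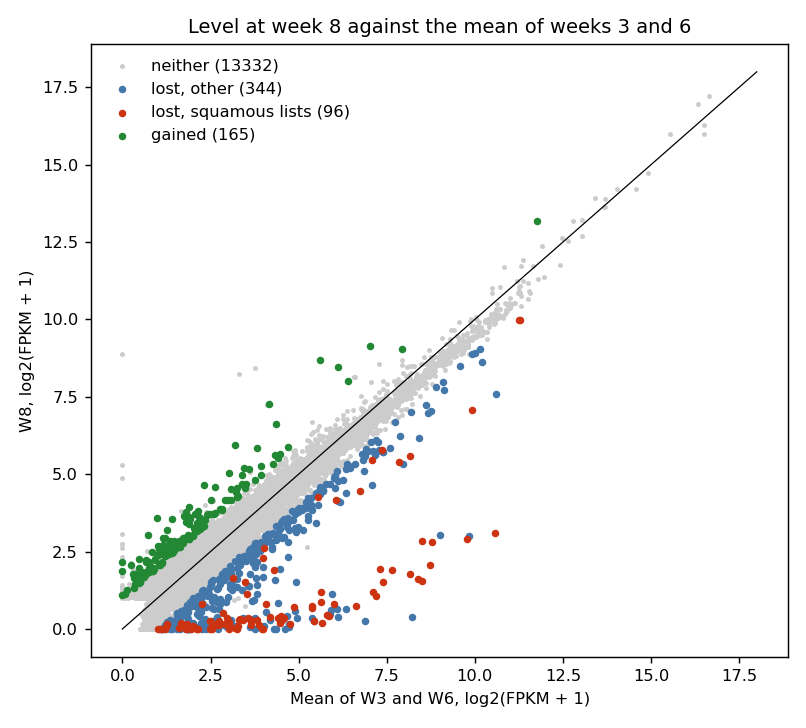
Level of each of 13937 genes at W8 (y axis) against the mean of W3 and W6 (x axis), both as log2(FPKM + 1), with the line of equality. The 96 lost genes of the squamous lists (red) reach from low levels up to a mean above 11 and lie mostly near the bottom of the plot, whereas the other 344 lost genes (blue) and the 165 gained genes (green) mostly follow the line at a distance; grey marks genes that were neither.

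Across both squamous lists, 96 of 122 analysed genes (78.7%) were lost, against 3.16% of all genes, and all 96 were already lower at W6 than at W3 (86.1% of all genes were). The sum of FPKM over the analysed cornified list was 15736 at W3, 9359 at W6 and 2693 at W8, and over the keratin and basal list 3559, 1737 and 547.3. In 68 of the 96 genes, W8 was under 5% of W6, in 12 it was from 5 to under 20%, and in 16 at least 20%, with a median of 2.42%. Fewer squamous cells in the tissue and less of these RNAs per cell cannot be told apart in such bulk samples. Whole stomachs were taken by the study's methods, but how much of the forestomach each library held is not given, and with 1 library at W8 a difference in dissection and a difference in age cannot be told apart.

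Some of the lost squamous genes kept a larger part of their level at W8. Sprr2a1 and Sprr2a2, near-identical copies with 1011 and 1006.5 FPKM at W8, were at 45.7% of W6, and they account for most of the sum of the cornified list at that age. Sfn, 14-3-3 sigma, had 166.8, 108.4 and 42.9 FPKM, and Gja1, connexin 43, which many cell types express, had 23.1, 9.72 and 5.10 FPKM. The 26 squamous-list genes that were not lost included adhesion genes not confined to squamous epithelia, such as Dsp, desmoplakin (55.1, 45.5 and 49.2 FPKM), Jup, plakoglobin (159, 134 and 110 FPKM), and Itgb4, integrin beta 4 (27.3, 23.5 and 21.6 FPKM). The list of 26 also held genes too low for separate bounds, such as Dsg3 (2.02, 0.201 and 0.0111 FPKM). Keratins of simple epithelium, looked up after the squamous values were seen, were divided. Krt8 (1975, 2034 and 1478 FPKM), Krt18 (587, 631 and 519 FPKM) and Krt19 (2309, 2811 and 1723 FPKM) were not called, whereas Krt7 (121.4, 99.3 and 49.6 FPKM) and Krt20 (183.1, 124.1 and 64.1 FPKM) were lost, with differences of -1.13 and -1.22. Against W6 alone, Krt7, Krt20, Gja1 and Hrnr were not lost.

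**Figure D2:**
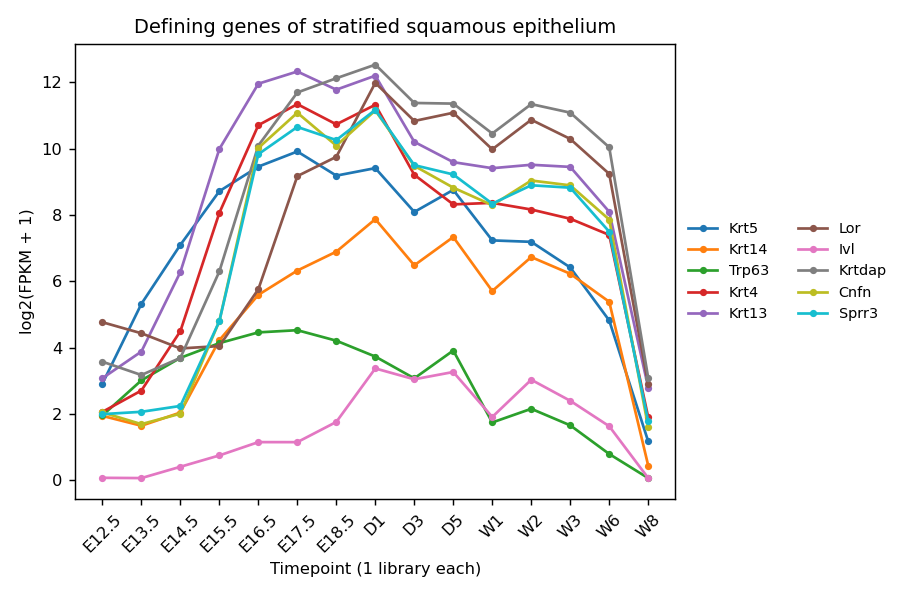
log2(FPKM + 1) of the 10 defining squamous genes over the 15 timepoints, 1 library each. All 10 curves have their highest value at E17.5 or D1 and their W8 value is below that of W6; Trp63 and Ivl run lowest, and both end near 0 at W8.

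The earlier timepoints, which the rule did not use, show the course of these genes before W3. Of the 96 lost squamous genes, 59 had the highest of 12 earlier values at postnatal day 1 (D1) and 20 at E17.5. Krtdap had 5922 FPKM at D1 and Krt13 5133 FPKM at E17.5. In 42 of the 96 (43.8%) W8 was below every earlier value, against 54.1% of all genes analysed, and 60.4% of the 96 had been under 1 FPKM at E12.5, against 11.2% of all. An index was made from the mean log2(FPKM + 1) of the 10 defining squamous genes, and each gene was correlated with it over the 12 earlier timepoints. Pearson's r was at least 0.8 for 230 of the 440 lost genes (52.3%), for 161 of the 344 lost genes outside the squamous lists (46.8%), for 6.67% of the gained genes and for 12.3% of all genes. This is a description: the 12 points share libraries and the trend of development, and the index genes are among the lost genes.

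Many of the lost genes lay in known clusters of epidermal genes. In the 2 Mb from 92 to 94 Mb of chromosome 3 (GRCm38, from the files), the epidermal differentiation complex, 40 of 45 analysed genes were lost, among them Lor, Ivl, Flg, Hrnr, Rptn and the Lce and Sprr families. The 1 Mb from 43 to 44 Mb of chromosome 7 held 11 lost of 19 genes, 10 of them kallikrein proteases from Klk5 to Klk14, some of which cut the links between cornified cells. Krt1, Krt4, Krt5, Krt6a, Krt6b, Krt7, Krt78 and Krt80 were the 8 lost of 16 genes from 101 to 102 Mb of chromosome 15, and serpins of the Serpinb family were the 5 lost of 6 genes from 107 to 108 Mb of chromosome 1. Il1f5, Il1f6, Il1f8 and Il1f9, cytokines of the interleukin-1 family, were the 4 analysed genes named Il1f, and all 4 were lost. Of 6 connexin genes named Gjb, 5 were lost and Gjb1 was not. These windows and families were picked out after their values were seen.

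By number of lost genes the matrix and smooth muscle lists came next, and by share the matrix list did but the smooth muscle list did not. Among all genes 3.16% were lost. Of 34 genes of fibroblasts and matrix, 19 were lost, with a median difference of -1.11, and all 34 differences were below 0. Col1a1, the main chain of type I collagen, had 421.4 FPKM at W3, 88.3 at W6 and 57.0 at W8. Eln, elastin, had 491.4, 37.0 and 24.2 FPKM. In 17 of the 19 genes W6 was at least 1 below W3, and in 18 W8 was less than 1 below W6. The W8 value was the lowest of the 15 timepoints in 14 of the 19 genes. That count was in part built in by the rule, and the share over all genes is given above.

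In the 19 lost matrix genes, W6 was a median 26.8% of W3 and W8 a median 65.9% of W6. In 86 of the 96 squamous genes, by contrast, W8 was at least 1 below W6. In the 25 lost genes of the keratin and basal list these medians were 35.4% and 6.91%, and in the 71 of the cornified list 41.4% and 2.34%. Among the genes not lost were Dcn, decorin (127, 92.1 and 63.1 FPKM), and Pdgfra, a receptor that marks fibroblasts (6.78, 4.63 and 5.21 FPKM). Of 39 genes of visceral smooth muscle, 10 were lost, with a median of -0.55. Actg2, the enteric gamma actin, had 2433, 560.3 and 393.4 FPKM, whereas Myh11, smooth muscle myosin, had 387.2, 169.2 and 195.0 FPKM and was not lost. With W6 alone as the reference, Eln, Col1a1, Col3a1, Actg2 and Cnn1 were not lost (differences of -0.59, -0.62, -0.70, -0.51 and -0.54).

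**Figure D3:**
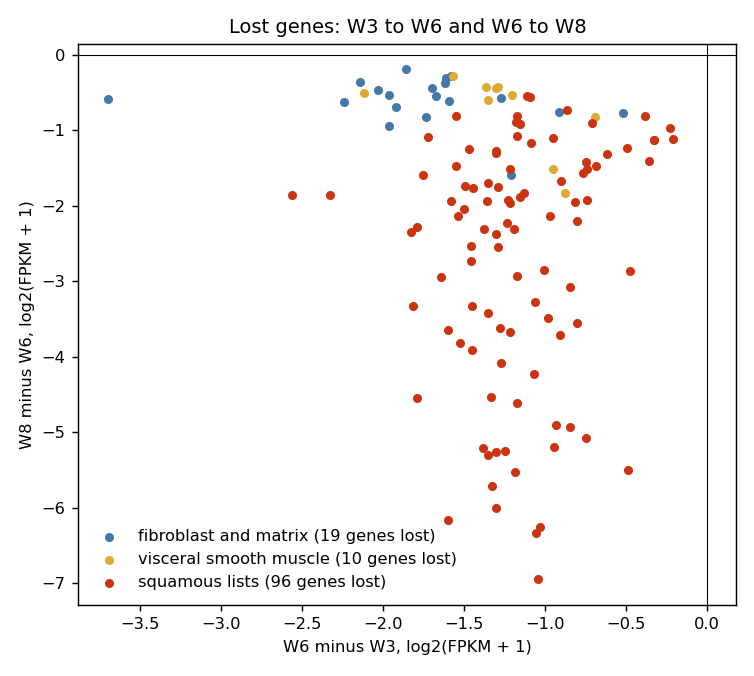
Difference between W6 and W3 (x axis) and between W8 and W6 (y axis), in log2(FPKM + 1), for the lost genes of 3 lists. The 96 squamous genes (red) spread down to about -7 in the second step, while 18 of the 19 matrix genes (blue) and 8 of the 10 smooth muscle genes (yellow) stay above -1 there, and 17 and 7 lie at -1 or less in the first step.

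A smaller set of lost genes had their highest values at W3 and W6. In 21 lost genes (4.77%) both W3 and W6 were above every earlier value, against 7.04% of all genes, so the share was not above the background. Chil4, a chitinase-like protein of mucosal epithelium and activated macrophages, had 279.2, 49.1 and 0.205 FPKM, and at most 11.6 FPKM before. Retnla, a resistin-like secreted protein, had 52.7, 15.4 and 0.495 FPKM. Mcpt1 and Mcpt2, proteases of mucosal mast cells, had 25.6, 14.4 and 1.99 FPKM and 41.6, 19.7 and 8.60 FPKM. Il33, an alarm cytokine named after its values were seen, had 26.7, 23.1 and 4.02 FPKM.

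Of 25 leukocyte genes 8 were lost and none gained (median -0.70): 5 mast cell proteases (Mcpt1, Mcpt2, Mcpt4, Cma1 and Tpsb2), S100a9 of neutrophils, and the complement genes C1qb and C1qc of macrophages, the last pair not lost against W6 alone (differences of -0.69 and -0.78). The defining leukocyte gene Ptprc, CD45, had 1.27, 0.965 and 1.23 FPKM, and none of the 8 genes of MHC class II presentation was called. In the interferon response, 4 of 35 genes were lost. The share of lost genes among all genes was 3.16%, to be set beside each count of lost genes given here. Isg15, a ubiquitin-like protein, had 15.2, 24.5 and 6.34 FPKM, and Irf7, Oasl2 and Bst2 had the same order, each highest at W6 and lowest at W8 of the 3. Of 21 genes of secreted mucosal defence, 8 were lost, led by Chil4, Retnla and Bpifb1 (460, 134 and 38.9 FPKM).

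From liver to detoxification, the lists named next had few lost genes by count, but their shares were above the 3.16% of all genes. In liver 3 of 20 were lost (Hpx, Trf and Apob), in mesothelium 4 of 12 (Slpi, Igfbp6, Upk3b and Krt7) and in skeletal muscle 3 of 10. In intestinal epithelium 4 of 17 were lost, and in immediate early and heat shock genes 4 of 34. Of the defining genes, Upk3b and Acta1 were lost. Msln of mesothelium, Ckm and Mylpf of muscle, and Vil1 and Fabp2 of intestine were not. Slpi was also on the mucosal defence list and Trf on the iron handling list. Adipocyte genes were lost in 2 of 18, iron handling in 3 of 13 and detoxification in 2 of 40, the last a share near that of all genes, among them Cyp2f2, a cytochrome P450, with 11.5, 4.02 and 0.0548 FPKM. Among the immediate early and heat shock genes, Hspa1a and Hspa1b, inducible HSP70 copies that share sequence, had 45.1, 11.6 and 6.83 FPKM and 46.5, 10.1 and 6.75 FPKM, and against W6 alone neither was lost. In the chief cell list, Cym, the milk-clotting protease chymosin of suckling animals, had 7718, 307.4 and 193.8 FPKM, and Pga5, a pepsinogen, had 688.5, 222.9 and 151.3 FPKM. Against W6 alone neither Cym nor Pga5 was lost (differences of -0.66 and -0.56), nor were Hpx and Trf. In 11 of 35 lists no gene was called, among them all 39 genes of cell division, 19 of the circadian clock, 24 of enteric neurons and glia, and 53 cytosolic ribosomal protein genes, whose median was -0.56. Homeobox genes of the Hoxc cluster, picked out after their values were seen, were lost in 3 of 4 analysed members, against 3.16% of all genes. Hoxc8 had 3.63, 2.63 and 0.0406 FPKM. Against W6 alone Hoxc4 and Hoxc5 were not lost (differences of -0.92 and -0.70). None of 4 Hoxa and 7 Hoxb genes was lost.

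**Figure D4:**
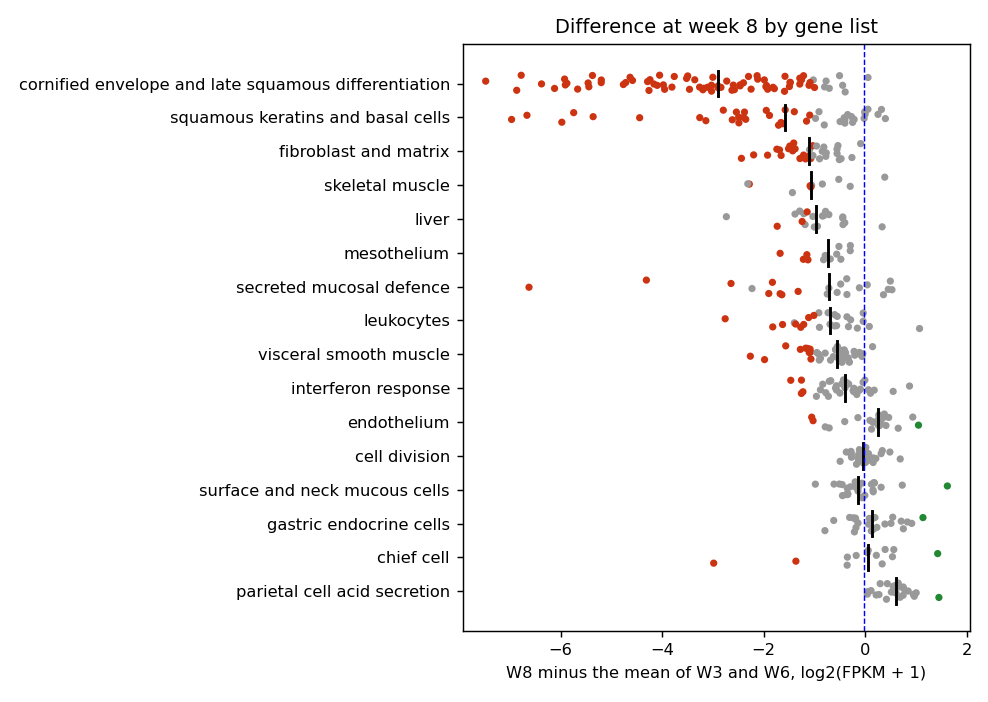
Difference between W8 and the mean of W3 and W6, in log2(FPKM + 1), for the analysed genes of 16 lists; red points are lost genes, green points gained genes, grey points neither, black bars list medians and the dashed line the median of all genes (-0.03). The cornified list has its median at -2.90 and the parietal list at 0.59.

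Genes gained at W8 numbered 165 (1.18% of all), fewer than the lost genes as reported but not under every setting. With a fixed sum without the 10 highest genes 328 were gained and 324 lost. Against W6 alone the counts were nearly equal, with 266 gained and 269 lost. The largest difference was 3.13, against -7.83 among the lost. W8 was a median 356% of W6 in the 165 gained genes. The 12 with the largest difference were LOC102639212, Neat1, Gm12888, LOC102636538, LOC101056014, Rgs11, A530020G20Rik, Pisd-ps3, Gm5741, LOC102636584, Spp1 and 6720401G13Rik. Of these, 4 (Gm12888, Rgs11, Gm5741 and Spp1) are protein-coding in RefSeq, and the other 8 are non-coding RNAs, a pseudogene or symbols with no match. Matched by symbol to RefSeq, 13.3% of the gained genes were lncRNAs, against 2.04% of all genes analysed and 0.455% of the lost genes. Protein-coding genes were 55.8% of the gained and 86.7% of all genes, and 22.4% of the gained genes had no match.

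Some gained genes had low values at W3 and W6 between higher ones. Neat1, the nuclear RNA that builds paraspeckles, had 46.1 FPKM at W3, 49.8 at W6 and 413.7 at W8, and had been at 218.7 FPKM at W2. Leng8 had 16.8, 10.3 and 56.0 FPKM after 40.7 at W2, and Rgs11, a regulator of G protein signalling, had 4.64, 3.43 and 24.4 FPKM after 19.9. In 135 gained genes (81.8%) both W3 and W6 were below W2, against 71.7% of all genes. The rule chose genes low at W3 and W6 beside W8, so this small excess was in part built in. The W8 value of 84 gained genes was within 1.5-fold of W2. Leng8 was named after its values were seen, as were Srrm2, a spliceosome component (39.4 FPKM at W2, then 24.0, 15.4 and 47.7, not gained against W3 alone), Ogt, the enzyme that adds O-GlcNAc to proteins (30.4, then 12.2, 7.40 and 30.2), and Vegfa, the vascular growth factor (33.7, then 16.48, 12.3 and 37.7).

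Other gained genes, several of them glandular, had their highest value at W8. In 81 gained genes (49.1%) W8 was above every earlier value, against 10.4% of all genes. The rule chose genes by a high W8 value, so an excess here was in part built in. Muc6, the mucin of neck and deep gland cells, had 51.9 FPKM at W2, 91.9 at W3, 76.6 at W6 and 258.8 at W8. Chia1, the acidic chitinase of chief cells, had 98.4, 1599, 7548 and 9319 FPKM, so its gain rested on the low W3 value, and against W6 alone the difference was 0.30. Chga, chromogranin A of endocrine cells, had 166.9, 200.9, 291.9 and 532.4 FPKM, and against W6 alone its difference was 0.87. Spp1, osteopontin, had 104.5, 87.2, 192.2 and 558.0 FPKM. Gm12888, an uncharacterised protein-coding gene, had at most 0.911 FPKM before W3 and then 2.92, 20.3 and 60.7 FPKM.

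**Figure D5:**
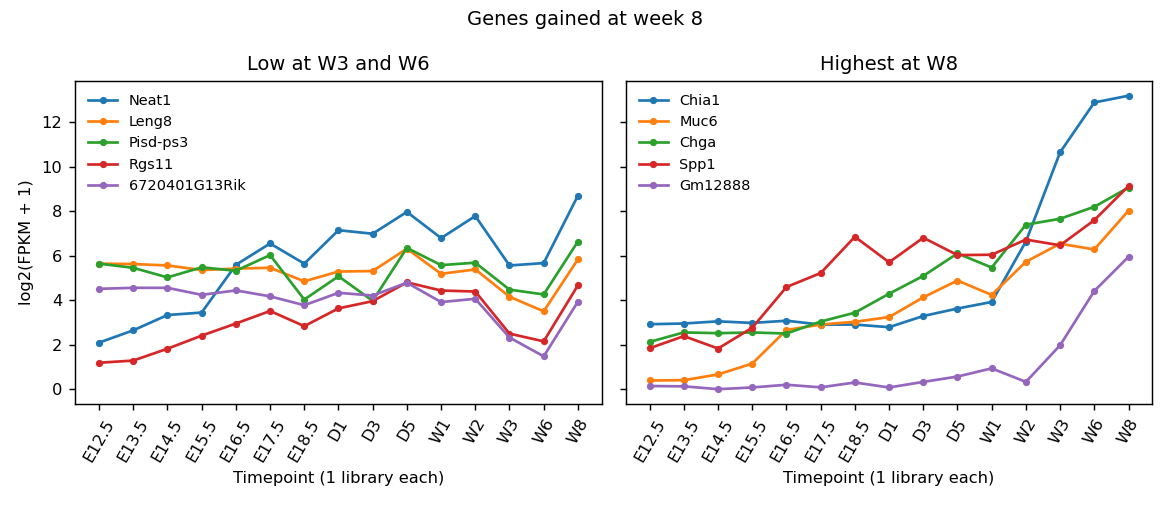
log2(FPKM + 1) over the 15 timepoints, 1 library each, for 10 gained genes. In the left panel 5 genes dip at W3 and W6 and return at W8, and in the right panel 5 genes reach their highest value at W8, with Chia1 at 9319 FPKM.

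Most genes of the glandular cell types were not called, and outside the parietal list their differences went in both directions. Among all genes 1.18% were gained, and in lists this short a single gained gene is not read as a result about the list. All 24 parietal genes had a difference above 0 (median 0.59, against -0.03 over all genes). Of these 1 was gained: Aqp4, a water channel, with 3.77, 3.23 and 11.2 FPKM. Atp4b, the other subunit of the proton pump, had 2203, 2894 and 3404 FPKM. In the surface and neck mucous list, Muc6 was the 1 gained gene of 27, and the median was -0.14, with Tff1, a trefoil peptide of surface cells, at 77497, 112832 and 65565 FPKM. Among 25 endocrine genes, 1 was gained (Chga), and the hormones Ghrl (2565, 2116 and 2436 FPKM) and Sst (1035, 881.6 and 1036 FPKM) were not called. In the pancreatic-type enzymes, Amy2a1, Amy2a5 and Rbpjl were gained and Sycn was lost (not against W6 alone) of 22, with Rbpjl, a transcription factor of exocrine cells, at 0.382, 0.408 and 3.75 FPKM. The 5 amylase copies named Amy2a are near-identical and their values cannot be separated. Kdr, a VEGF receptor, was the 1 gained gene of 22 endothelial genes (3.35, 3.33 and 7.96 FPKM), and Pecam1, their general marker, had 13.53, 7.32 and 12.3 FPKM. Ccl21a (17.53, 8.28 and 5.31 FPKM) and Lyve1 (7.29, 4.96 and 2.44 FPKM), made in lymphatic vessels, were lost, but not against W6 alone (differences of -0.56 and -0.79). The lymphatic receptor Flt4 had 1.40, 0.963 and 0.962 FPKM and was not called, and the lymphatic factor Prox1 was under 1 FPKM in the 3 libraries.

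The rule's borders were as follows. Plxdc2, Tmprss11a and Spns2 were just inside the lost side (Plxdc2 at 7.51, 3.20 and 1.99 FPKM), and Hbb-bs, Cebpb and Chst4 just outside it (Hbb-bs at 291.0, 201.2 and 120.6 FPKM). On the gained side Dnajb7, Gm7575 and Fv1 were just inside, and Slc26a9, Pan2 and Rufy2 just outside (Slc26a9 at 41.9, 51.4 and 93.9 FPKM). A further 69 genes were lower and 72 higher at W8 by at least 1 with overlapping bounds, and were not counted. Between pairs of ages, 55 genes (0.395%) were higher and 639 (4.58%) lower at W6 than at W3 by at least 1 with separate bounds, and 187 (1.34%) were higher and 982 (7.05%) lower at W8 than at W3. Between W6 and W8, 266 (1.91%) were higher and 269 (1.93%) lower at W8.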

How the data were processed

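Stomach RNA of C57BL/6 mice had been sequenced at 15 timepoints, with 1 library per timepoint, and the W3, W6 and W8 libraries were compared here. The authors deposited a table of FPKM values for each timepoint, and bounds below and above every value. The methods of the study name HISAT2 and StringTie, the submitters' processing notes name Bowtie 0.12.2, FastQC and GRCm38.p2, and the tables have the layout of Cufflinks output, so the tool behind the values is uncertain. Read totals are not in the tables. Because FPKM is relative to the library, a few very high genes move all others: the 10 highest genes held 36.7% of the FPKM sum at W3, 53.2% at W6 and 52.1% at W8.

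Values and bounds were added up per gene symbol (44788 symbols). Genes with at least 1 FPKM in any of the 3 libraries were analysed as log2(FPKM + 1), where a pseudocount of 1 understates the differences of low genes. Calls needed a difference of at least 1 and separate bounds. The call rule was tried on simulated data that held counting error only. Variation between animals or libraries was not simulated, so that trial does not cover it. No test was run, since each age had 1 library. The members and the gene lists were chosen with earlier results of these data known. Named genes were taken from the 12 lost and 12 gained with the largest difference, the defining members and up to 6 called members of each list, and the 3 genes on each side of the threshold. Genes named beyond these were chosen after their values were seen. Promoters (RefSeq, GRCm38.p6) were matched by symbol to the start nearest the 5′ end in the files. Python 3.11.15, NumPy 2.4.6, pandas 2.3.3 and Matplotlib 3.10.9 were used. Alternatives were other scalings, pseudocounts, filters, thresholds and references.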

Additional observations from a re-analysis of the deposited data

How the results depend on the processing

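No paired analysis was possible because each age had 1 library. The counts were 440 lost and 165 gained genes. Without the W3 library they were 269 and 266, with 247 of the 440 lost and 149 of the 165 gained genes kept, and without the W6 library 982 and 187, with 438 and 115 kept. A difference of at least 2 left 145 lost and 14 gained genes. Gained genes numbered 339 with a pseudocount of 0.1, 101 with a minimum of 5 FPKM, and 328 when the libraries were set to a fixed sum without the 10 highest genes, which moved the median of all genes from -0.03 to 0.20 and left 324 lost genes. The share of lost among called genes was 49.7% there and 72.7% as reported. The lost squamous-list genes, an alternative count chosen after seeing the data, numbered 96 as reported and ranged from 69 (difference of at least 2) to 100 over the settings, with 86 without W3, 100 without W6 and 95 with either other scaling. A check of 140 genes under these settings held 45 genes called as lost or gained, and none of the 45 changed its direction. Called genes named in the text beyond these 45 were not checked in this way. The result was weaker in 16 cases: 4 with the fixed sum, 11 without W3 and 1 without W6.

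With the fixed sum, list medians became -0.48 for leukocytes, 0.85 for parietal cells, 0.31 for chief cells and 0.11 for mucous cells, the last from -0.14. With a pseudocount of 0.1 they became -2.34 and -4.91 for the keratin and the cornified list and -0.94 for leukocytes. A minimum of 5 FPKM gave -1.19 for leukocytes and 0.19 for chief cells, and median-ratio scaling -0.12 for mucous cells. With W3 or W6 left out, the medians ranged from -0.99 to -0.33 for leukocytes, from 0.47 to 0.77 for parietal cells, from -0.080 to 0.24 for chief cells and from -0.17 to -0.065 for mucous cells. Median-ratio scaling gave 96 genes higher and 285 lower at W6 than at W3. The fixed sum gave 344 genes higher at W8 than at W3 and 478 higher than at W6. Differences between single libraries cannot be told from differences between ages, and low values such as Trp63 rest on a few fragments.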
